A study of Mus musculus with 7 samples.

Results

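The hepatoblast marker genes described here are *Alb*, *Afp*, *Ttr*, *Rbp4*, *Ahsg*, *Aadac*, *Lect2*, *Pla2g12b* and *Trf*, 9 of the 14896 genes tested. They were chosen by name, with their higher signals in *Shh* mutant tissue in these same arrays already known, so the mutant against wild-type change of each is a description and carries no test. Tissue was the posterior second heart field (pSHF) microdissected at E9.5, a mesenchyme of cardiac progenitors that lies behind the heart. Per the study's description, foregut still attached to this mesenchyme went into the pools, and cardiac and neural tube tissue did not. RNA came from pooled embryos on a mixed background labelled C56B/6 and CD-1, with 4 pools of *Shh* -/- embryos (the mutants) and 3 pools of *Shh* +/+ embryos (the wild type), all from superovulated *Shh* +/- females mated to *Shh* +/- males. The mutants lack *Shh* in the whole embryo, and the labels do not mention the liver bud among the tissues kept or removed.

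Hepatoblasts are the bipotent progenitors of hepatocytes and bile duct cells. They arise in the ventral foregut endoderm next to the cardiac mesoderm, and form a bud that grows into the mesenchyme of the septum transversum. From early on they secrete plasma proteins, several of which the visceral endoderm of the yolk sac also makes. In RNA from dissected tissue, fewer cells of a type and less RNA per cell cannot be told apart.

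Each gene was read by 1 probe, spotted once per array except for *Afp*, whose probe had 10 spots. All 9 were well above background on all 7 arrays. The probes of the abundant *Alb* and the narrowly separated *Trf* are shown because their letters define which transcript was read. The *Alb* probe (mm9, chr5:90901598-90901657, plus strand) and the *Trf* probe (mm9, chr9:103117569-103118184, minus strand) are each 60 bases long and come from the coding part of the transcript. The *Trf* probe covers 616 bases of genome and so spans an exon junction.
*Alb* probe: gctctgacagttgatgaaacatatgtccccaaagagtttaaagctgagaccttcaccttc
*Trf* probe: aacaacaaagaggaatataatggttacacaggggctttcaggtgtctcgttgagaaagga

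*Alb* and *Afp* are neighbours on chromosome 5, with 14111 bases between the end of the first and the start of the other (GRCm38.p6). Their upstream sequences are shown with that of *Lect2* because these 3 genes share a short motif while their changes differed. RefSeq entries of GRCm38.p6 gave upstream sequence for 7 of the 9 genes. The 250 bases before the start site are printed. Capitals mark GTTAAT, a half-site of the HNF1 factors, and the core promoter element TATAAA. Every motif was searched on both strands.
*Alb*, chr5:90460620-90460869, plus strand: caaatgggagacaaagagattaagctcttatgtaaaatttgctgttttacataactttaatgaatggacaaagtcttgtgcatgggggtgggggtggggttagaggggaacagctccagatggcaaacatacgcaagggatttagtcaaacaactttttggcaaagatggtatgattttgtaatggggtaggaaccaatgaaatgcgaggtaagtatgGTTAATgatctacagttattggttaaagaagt
*Afp*, chr5:90490464-90490713, plus strand: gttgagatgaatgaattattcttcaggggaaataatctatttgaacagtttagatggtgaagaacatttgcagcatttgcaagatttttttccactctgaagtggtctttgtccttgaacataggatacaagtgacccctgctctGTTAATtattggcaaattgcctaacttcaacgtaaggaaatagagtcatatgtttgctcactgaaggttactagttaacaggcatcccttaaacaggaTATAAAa
*Lect2*, chr13:56548539-56548788, minus strand: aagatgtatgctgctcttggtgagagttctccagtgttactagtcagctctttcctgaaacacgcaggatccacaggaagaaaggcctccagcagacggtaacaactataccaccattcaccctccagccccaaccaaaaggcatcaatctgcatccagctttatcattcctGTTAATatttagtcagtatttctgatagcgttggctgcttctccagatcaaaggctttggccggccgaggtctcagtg
GTTAAT was present before *Alb*, *Afp* and *Lect2* and in 6.43% of all 32851 upstream sequences of this length. TATAAA was present before *Afp*, where it ends 2 bases before the start, and before 1 of the 2 starts of *Rbp4*, against 12.4% of all. The letters CAAAGTC (an HNF4 half-site) were found before *Alb* and *Ahsg* (3.84% of all), and TGTTTAC (a forkhead core) before *Rbp4* alone (3.17% of all). CCAAT, the letters of the CCAAT box, was found before *Aadac*, *Afp*, *Alb* and *Rbp4* (33.8% of all). No match of 1 motif overlapped a match of another in these sequences, and *Pla2g12b* held none of the 5. The matches describe letters in these windows and do not show binding.

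There were 4 slides. Each of slides 1, 3 and 4 carried the mutant pool of that number in its first position and the matching wild-type pool beside it, so effects of position and of genotype cannot be told apart. Slide 2 carried a mutant pool only, and its label notes a possible leak during hybridization. This array also had the smallest share of probes well above background, and wild-type pool 4 had the highest (70.6%). The signal of *Shh* on the log2 scale was 9.64, 9.36, 9.19 and 9.29 in the mutants (pools 1 to 4) and 10.69, 10.70 and 9.95 in the wild type (pools 1, 3 and 4). The genotypes did not overlap (two-sided exact permutation test, p = 0.0286, the smallest this design can give), with a log2 change of −1.08 that was not past the threshold after adjustment (limma, adjusted p = 0.0655). The design text calls the pools independent, but nothing in the labels ties them to separate litters, so p-values measure the spread between pools.

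Signals are given below as normalized log2 values, in the order mutant pool 1, 2, 3, 4 and wild-type pool 1, 3, 4. A change is the mutant mean minus the wild-type mean, and 1 on this scale is 2-fold. Levels of different probes are not compared as amounts of RNA, since probes differ in how brightly they report. *Alb* encodes serum albumin, the main carrier protein of plasma. Its signals were 12.38, 13.08, 12.78 and 12.34 in the mutants and 11.15, 11.40 and 11.73 in the wild type. The lowest mutant pool was 0.61 above the highest wild-type pool. The mean was 12.65 ± 0.35 (SD, n = 4) against 11.43 ± 0.29 (SD, n = 3), a change of 1.22 or 2.33-fold.

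*Afp* encodes alpha-fetoprotein, the fetal counterpart of albumin made by hepatoblasts and yolk sac endoderm. Its signals were 17.02, 16.96, 16.65 and 17.30 in the mutants and 16.93, 16.77 and 16.74 in the wild type. Mutant pool 3 was the lowest of all 7, so the genotypes overlapped, and the change was 0.17 or 1.12-fold. *Afp* was the brightest of the 9 and ranked 121 among 23129 probes by mean signal. The mean intensity of its spots was 103284 to 156532 per array, or 13.3% to 20.1% of the scanner's saturation value, and no spot was saturated. Before normalization the highest of these intensities was that of mutant pool 3. Its spots within an array had an SD of 0.029 to 0.088 (log2), smaller than the SD of 0.27 between mutant pools. Some other bright probes had the same highest and lowest mutant pools. The globin *Hbb-bh1* read 17.64 in mutant pool 4 and 16.84 in mutant pool 3, and the heart muscle gene *Myl7* read 17.30 and 16.75. For *Dlk1* and *Krt18*, genes of the hepatoblast surface and cytoskeleton, these pools were again the highest and lowest mutants. *Dlk1* read 16.95 and 16.42, and *Krt18* read 16.37 and 15.93. *Rbp4* and *Ambp*, also bright, were lowest in mutant pool 1. *Hbb-bh1*, *Myl7*, *Dlk1* and *Krt18* were named after their values were seen, and the cause of the shared pattern was not tested.

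*Ttr* and *Rbp4* encode partners in plasma transport, since transthyretin carries thyroxine and also binds the retinol-binding protein 4 that carries vitamin A. *Ttr* gave 8.15, 8.48, 8.65 and 8.31 in the mutants and 7.54, 7.42 and 7.49 in the wild type, a change of 0.91 or 1.88-fold. *Rbp4* gave 15.28, 15.81, 15.64 and 15.80 against 14.76, 14.88 and 14.90, a change of 0.78 or 1.72-fold. In both the genotypes were apart and the wild-type pools lay close together, with SDs of 0.060 and 0.075 (n = 3). The mutant pools spread more widely, with SDs of 0.21 and 0.25 (n = 4).

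*Trf* encodes transferrin, the iron carrier of plasma. Its signals were 11.21, 11.53, 11.62 and 11.01 in the mutants and 10.12, 10.75 and 10.87 in the wild type. The genotypes did not overlap, but mutant pool 4 lay only 0.14 above wild-type pool 4, the smallest gap of the 8 genes that did not overlap. The change was 0.76 or 1.70-fold, and on slides 1, 3 and 4 the mutant minus wild-type difference was 1.08, 0.88 and 0.14.

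*Ahsg*, the gene of fetuin-A, a plasma inhibitor of mineral deposition, was the dimmest of the 9. It gave 6.36, 7.43, 7.64 and 7.38 in the mutants and 5.35, 5.52 and 5.90 in the wild type, a change of 1.61 or 3.05-fold. Mutant pool 1 was the lowest mutant pool and lay 0.46 above the highest wild-type pool. *Lect2*, a chemotactic factor secreted by hepatocytes, gave 10.08, 10.71, 10.60 and 10.74 against 8.95, 8.60 and 9.32, a change of 1.57 or 2.97-fold.

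*Pla2g12b*, a phospholipase A2 relative that lacks enzyme activity and takes part in lipoprotein secretion, had the tightest wild-type values. It gave 10.13, 10.39, 10.40 and 10.26 in the mutants and 9.21, 9.22 and 9.19 in the wild type. The wild-type SD was 0.014 (n = 3), the mutant SD was 0.13 (n = 4), and the change was 1.09 or 2.12-fold. *Aadac*, an esterase of the hepatocyte endoplasmic reticulum, had the largest increase of any probe tested, although with quantile normalization that of *Lect2* was larger (1.44 against 1.39). It gave 7.35, 8.19, 8.23 and 8.05 against 6.24, 5.80 and 6.17, a change of 1.89 or 3.69-fold, and its lowest mutant pool was 1.11 above its highest wild-type pool.

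For 8 of the 9 genes every mutant pool lay above every wild-type pool, and *Afp* was the exception. Over all probes with a value on every array this held for 1099 of 23027 (4.77%). The genes were chosen on this contrast, so the count is not read against that share. The median change of the 9 was 1.09, beside 0.018 over all probes tested, whose median SD within genotypes was 0.19. Within slides all 3 differences were above 0 for 8 genes. *Afp* differed by 0.09, −0.12 and 0.56 on slides 1, 3 and 4. Slide 3 gave the largest difference for *Alb*, *Ttr*, *Ahsg*, *Aadac*, *Lect2* and *Pla2g12b*.

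**Figure D1:**
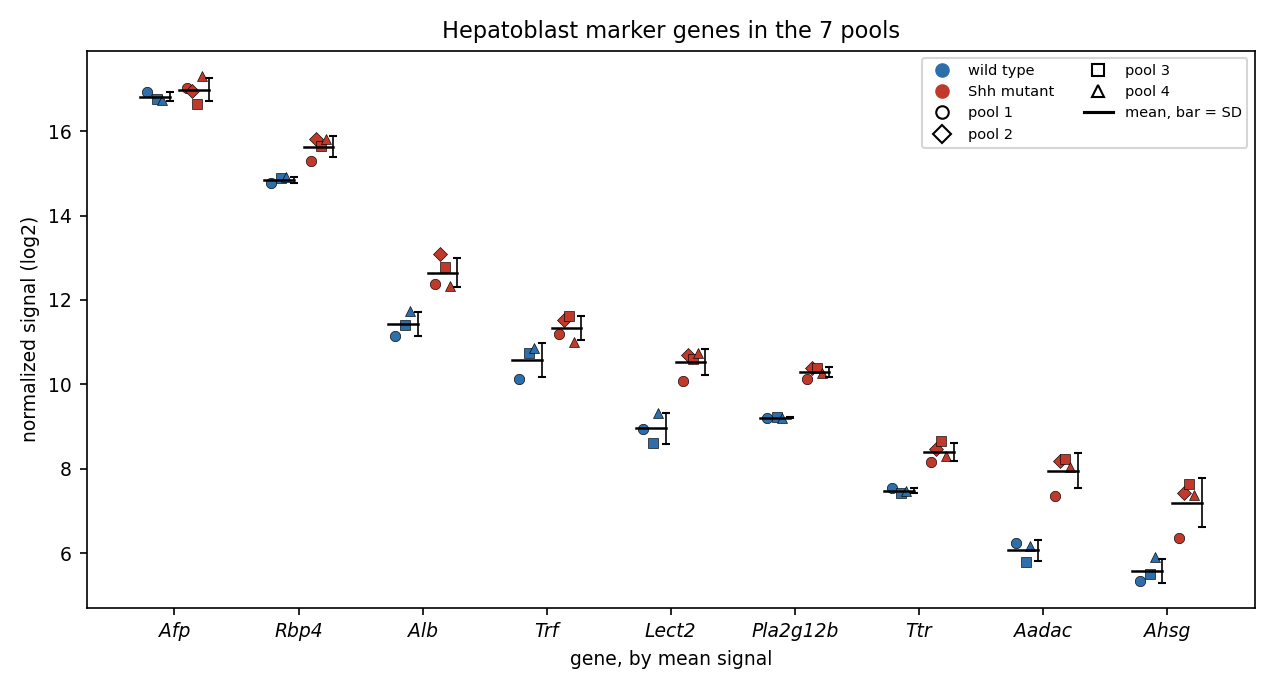
Normalized log2 signal (vertical axis) of each hepatoblast marker gene in the 4 mutant and 3 wild-type pools, with genes ordered by mean signal. Each point is 1 pool, its shape the pool number, and the lines are means with SD bars. The genotypes are apart for 8 genes and overlap for *Afp*.

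The rise was related to signal level. Across the 9 genes the change fell with the mean log2 signal of the 7 pools (Pearson r = −0.80, Spearman rho = −0.75, n = 9 genes). Against the wild-type mean, which is itself part of the change, r was −0.83. *Ahsg* and *Aadac*, with mean signals of 6.51 and 7.15, changed by 1.61 and 1.89, whereas *Rbp4* and *Afp*, at 15.30 and 16.91, changed by 0.78 and 0.17. In between, the order was loose. *Ttr* was dim (8.01) and changed by 0.91, and *Alb* was bright (12.12) and changed by 1.22. Without *Afp* r was −0.65, and without *Afp* and *Rbp4* it was −0.54 (7 genes). All points share the same 7 arrays and their normalization, and genes are not independent replicates.

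The same relation was computed for other liver genes. Over 83 tested genes of the other liver lists the change and the mean signal had r = 0.01 and rho = 0.10, and over all 23129 probes r was 0.20 and rho 0.27. The difference between these values and that of the 9 genes was not tested. With quantile normalization in place of variance stabilization r was −0.70, and in the deposited log2 values it was −0.59.

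**Figure D2:**
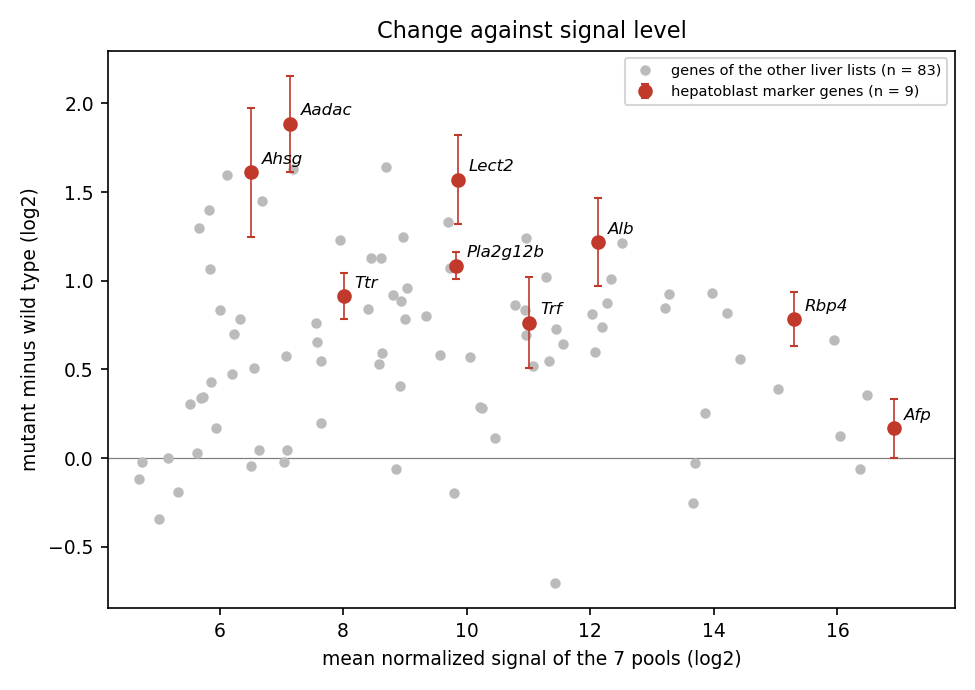
Change from wild type to mutant (log2, vertical axis) against the mean normalized signal of the 7 pools (log2, horizontal axis). Red points are the 9 hepatoblast marker genes, with bars of 1 standard error from the pooled SD, and grey points are the 83 tested genes of the other liver lists. The red points fall from *Aadac* at the upper left to *Afp* at the lower right.

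The mutant pools differed in how far the genes rose. The median over the 9 genes of the difference from the wild-type mean was 0.77 in the first mutant pool, 1.18 in the one numbered 2, 1.19 in pool 3 and 0.95 in pool 4. For wild-type pools 1, 3 and 4 the values were −0.0078, −0.049 and 0.10. Mutant pool 1 was the lowest mutant pool for 6 genes (*Ttr*, *Rbp4*, *Ahsg*, *Aadac*, *Lect2* and *Pla2g12b*), and lay above the mutant mean for 1 of 9. Mutant pools 2 and 3 lay above it for 8 of 9 each, and mutant pool 4 for 5 of 9. *Alb* and *Trf* were lowest in mutant pool 4, the pool in which *Afp* was highest. In the wild type, pool 4 lay above the genotype mean for 7 of 9 genes and pools 1 and 3 for 3 of 9 each. The pool with the possible leak was thus not the one with the lowest liver signals, and without it the median change of the 9 genes was 1.06.

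The genes varied together across pools of 1 genotype to different degrees. Deviations from the genotype means had a median r of 0.51 over the 36 pairs of genes, above 0 in 30 pairs. It was 0.91 for *Ttr* with *Pla2g12b* and −0.80 for *Afp* with *Trf*, and every pair below 0 included *Afp*. Each r rests on 7 pools and shared arrays and is given as a description. No value for pairs of other genes is given beside these, so effects shared by an array cannot be told apart. Including the difference between genotypes, the correlation of each gene with the mean profile of the other 8 was 0.98 for *Aadac*, 0.95 for *Alb*, 0.83 for *Trf* and 0.27 for *Afp*. The genes were chosen as higher in the mutants, which favours a high r here, so these values are no evidence that the set belongs together.

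**Figure D3:**
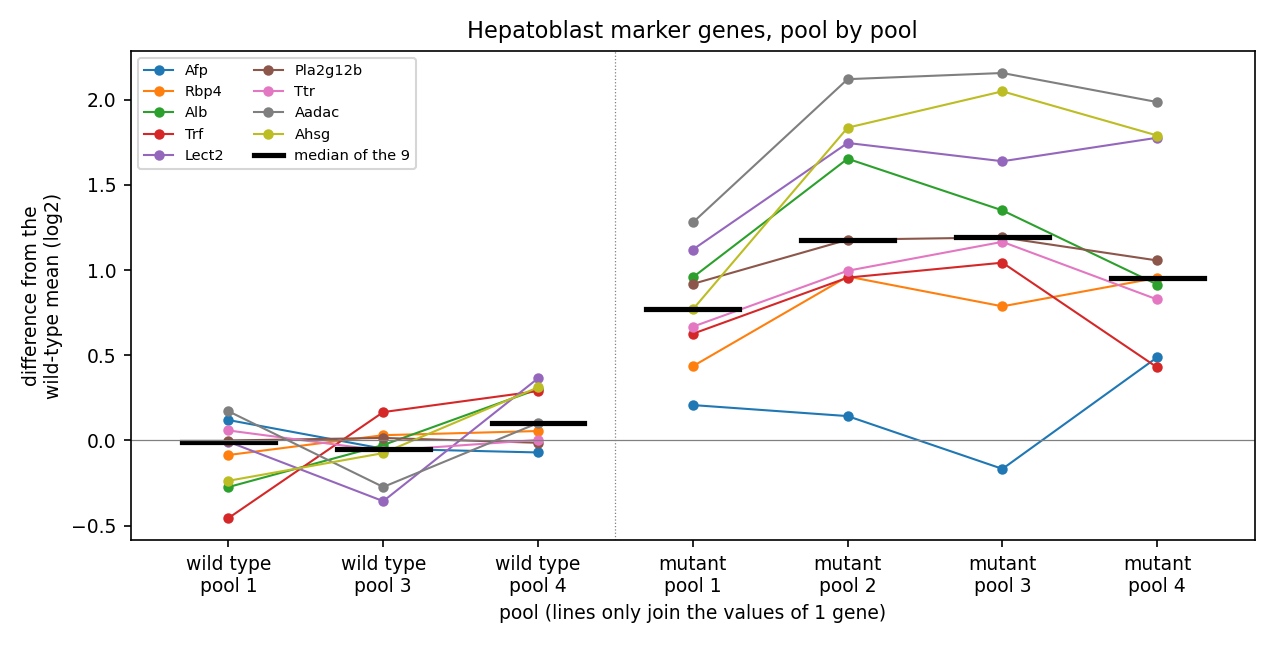
Difference of each hepatoblast marker gene from its wild-type mean (log2, vertical axis) in each pool (horizontal axis). Coloured lines only join the values of 1 gene within a genotype, and black bars are the median of the 9 genes. The median is lowest in mutant pool 1 (0.77) among the mutants. *Afp* lies below its wild-type mean (signal 16.81) in mutant pool 3 (16.65) and furthest above it in mutant pool 4 (17.30).

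Other genes of the liver programme were described from 6 further lists with 98 genes, of which 96 were on the array and 83 were bright enough to test. In the mutants 70 were higher and 13 lower, with a median change of 0.60. By limma, 14 of them (16.9%) passed an adjusted p of 0.05, all higher, against 0.558% of all probes tested (129 of 23129, with 0.264% called higher and 0.294% called lower). Every mutant pool lay above every wild-type pool for 48 of the 83 genes (57.8%, beside 4.77% of all probes) and for each of the 14. Of the 83, 2 passed the filter through the mutants alone and 5 through the wild type alone. Of the 76 above background on all 7 arrays, 68 were higher and 13 were called. The lists were drawn up with earlier results of these arrays known, *Creb3l3*, *Fga*, *Apoc2* and *Cfi* among them. These counts and shares are therefore no independent evidence of direction or of a higher share called. The adjusted p-values of those genes are descriptions too. The lists read each gene by its brightest probe, whereas the shares beside them cover all probes. With the replicate block, which compares only within slides and leaves mutant pool 2 without weight, limma called 0 of the 83 (lowest adjusted p = 0.0539, 53 at an unadjusted p under 0.05), with 72 higher and a median of 0.57. Leaving out wild-type pool 1, 3 or 4 or mutant pool 3 also left 0 called. Without mutant pool 2 limma called 1, without mutant pool 4 it called 4 and without mutant pool 1 it called 19, while the median stayed between 0.54 and 0.69. In the deposited values the median of all probes was −0.54, and where a list's median turned below 0 there its value is given beside it.

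Blood clotting and complement genes had the most calls of these lists, with 7 of 17 called, 16 of 17 higher and a median change of 0.86. All chains of fibrinogen, the protein of the clot, rose. *Fga* gave 6.85, 7.08, 7.63 and 7.70 in the mutants and 5.80, 5.56 and 6.23 in the wild type, a change of 1.45 (limma, adjusted p = 0.0440). *Fgb* changed by 0.82 (adjusted p = 0.0491) and *Fgg* by 0.92 (adjusted p = 0.0433) in the same limma fit. *Serpinc1* (antithrombin) gave 11.35, 11.90, 11.96 and 11.67 against 10.65, 10.69 and 10.74, a change of 1.02 (limma, adjusted p = 0.0356). Its dimmer probe gave 0.54 (limma, adjusted p = 0.381). Coagulation factor *F10* changed by 0.86, complement *C3* by 1.24 and complement factor *Cfi* by 1.23, with limma's adjusted p at 0.0319, 0.0319 and 0.0155.

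Of 20 other plasma proteins 17 were higher, with a median of 0.79, and 3 were called. They included *Ambp*, the precursor of the protease inhibitor bikunin (0.67, limma, adjusted p = 0.0408), and the secreted phosphoprotein *Spp2* (1.25, limma, adjusted p = 0.0185). All 8 apolipoproteins tested were higher, with a median of 0.81, and *Apoc1* (0.88, limma, adjusted p = 0.0319) and *Apoc2* (1.33, limma, adjusted p = 0.0477) were called. Among 15 metabolic enzymes and transporters 12 were higher, the median was 0.41 (−0.10 in the deposited values) and 1 was called, the glucose transporter *Slc2a2* (1.13, limma, adjusted p = 0.0319), whose other probe gave 0.38 (limma, adjusted p = 0.426).

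Of 16 transcription factors of the liver 12 were higher, the median was 0.56 (−0.077 in the deposited values) and 1 was called. Without wild-type pool 1 this median was 0.30 (11 of 16 higher), and with the median over the probes of a gene it was 0.31. The called gene was *Creb3l3*, a membrane-bound factor of hepatocytes. It gave 7.31, 8.16, 8.05 and 8.01 in the mutants against 6.13, 5.94 and 6.69 in the wild type, a change of 1.63 (limma, adjusted p = 0.0319). None of 7 surface and cytoskeletal genes was called by limma (3 at an unadjusted p under 0.05, median 0.28, or −0.11 in the deposited values and 0.12 with the median over probes), and *Anpep*, a peptidase of the cell surface, had the lowest adjusted p (0.52, limma, adjusted p = 0.241). Thus 16 of 18 listed transcription factors and all 7 surface genes were above the filter on dim probes, beside the secreted products that make up most of the 9 marker genes.

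**Figure D4:**
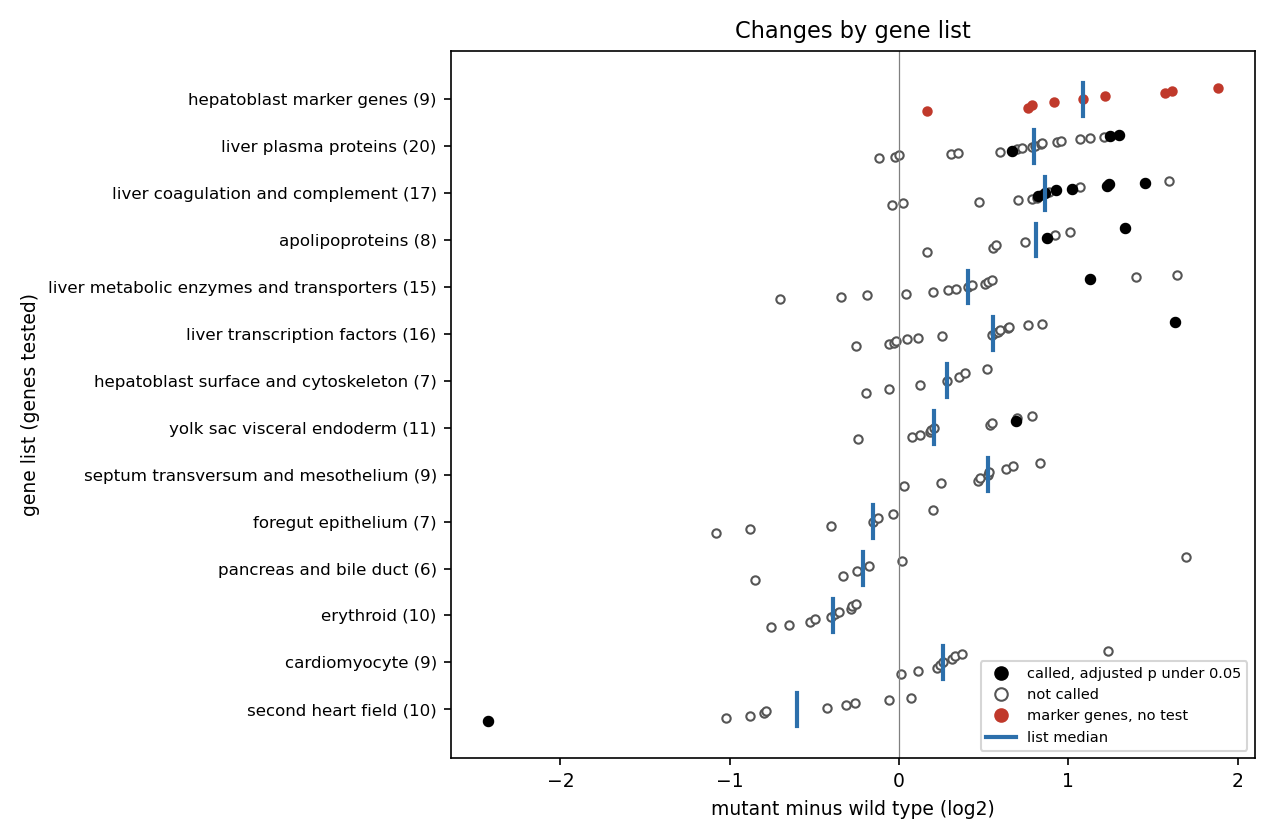
Change from wild type to mutant (log2, horizontal axis) of every gene tested in each list (vertical axis, number of genes in brackets). Black points passed an adjusted p of 0.05 in limma, open points did not, red points are the 9 marker genes with no test, and blue bars are list medians. The medians of the marker genes (1.09) and of clotting and complement genes (0.86) lie above those of the other lists.

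Genes with profiles most like the mean of the 9 were sought among 3457 probes that ranged over at least 1 on the log2 scale. The 8 nearest by Pearson r over the 7 pools included *Serpinc1* (0.991), *Creb3l3* (0.990), *Gltpd2* (0.988), *Spp2* (0.987), *F10* (0.986), *Osgin1* (0.981) and *Prodh2* (0.981). Of the 8, 5 were in the liver lists, which were drawn up with earlier results of these arrays known. The mean profile was 0.14 to 0.65 in the mutants and −0.71 to −0.49 in the wild type. It came from genes chosen on that contrast, so a search by it favours any gene higher in the mutants. The share of liver genes among all 3457 probes is not given, so the 5 are a description. *Gltpd2* changed by 0.88, *Osgin1* by 0.96 and *Prodh2* by 0.93. In all, 114 probes had an r above 0.9, so the order among the nearest is close.

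Markers of other cell types in or near the dissection were set beside the 9 genes. Yolk sac visceral endoderm shares plasma proteins with the liver, and 10 of its 11 genes were higher with a median of 0.20 (−0.29 in the deposited values, 0.32 without wild-type pool 3 and 0.34 without mutant pool 4). For 5 of the 11 every mutant pool lay above every wild-type pool, beside 4.77% of all probes. By limma 5 had an unadjusted p under 0.05. *Cited1*, a transcriptional coactivator, was the 1 gene called (0.69, limma, adjusted p = 0.0319). Its call was lost with the replicate block (limma, adjusted p = 0.116) and with any 1 pool left out (limma, adjusted p = 0.0524 to 0.141). The block left 0 of the 83 liver genes called as well. With quantile normalization the call of *Cited1* held (limma, adjusted p = 0.0239). There the calls of *Ambp*, *Fgb*, *Fgg* and *Apoc2*, among others, were lost, and 8 liver genes were called higher. The summed log2 level of that list was 14.17 to 14.33 in the mutants and 13.75 to 13.89 in the wild type, and all its genes were above the filter. For the septum transversum and mesothelium 9 of 9 genes were higher, with a median of 0.53 (−0.052 in the deposited values) and 0 called by limma (5 at an unadjusted p under 0.05). Every mutant pool lay above every wild-type pool for 4 of the 9. Of the 9 genes *Wt1*, a factor of the mesothelium, had the lowest adjusted p (0.83, limma, adjusted p = 0.0610). Its list summed to 14.44 to 14.64 in the mutants and 13.90 to 14.18 in the wild type. The summed levels of both lists thus lay apart between the genotypes, although 1 of their 20 genes was called. Each sum adds linear signals, so bright probes weigh most, and the brightest of the yolk sac list was the called *Cited1*. Median differences from the wild-type mean, which give each gene equal weight, also lay apart. For the yolk sac they were 0.26 to 0.42 in the mutants and −0.057 to 0.11 in the wild type. For the septum list they were 0.26 to 0.82 and −0.25 to 0.16. The part of both lists in the result for the 9 genes was not tested.

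Foregut epithelium, from which hepatoblasts arise, had lower values for 6 of 7 genes, *Shh* itself among them (median −0.16, 0 called by limma, 3 at an unadjusted p under 0.05), with *Nkx2-1*, a factor of thyroid and lung, at −0.88 (limma, adjusted p = 0.0516). Of 6 pancreas and bile duct genes 4 were lower and 0 were called by limma (3 at an unadjusted p under 0.05), with *Nkx6-1* at −0.85 (limma, adjusted p = 0.0676). The largest change in that list ran the other way, with *Ptf1a*, a factor of the pancreas named after its value was seen, at 1.70 (limma, adjusted p = 0.137) and every mutant pool above every wild-type pool, of which 2 of 3 read it well above background. All 10 erythroid genes were lower (median −0.39, 0 called by limma, 3 at an unadjusted p under 0.05), with *Gata1* at −0.50 (limma, adjusted p = 0.207). Without wild-type pool 1 the erythroid median was −0.12 with 3 of 10 higher, and in the deposited values set to 1 median per array 4 of 10 were higher. The 9 cardiomyocyte genes were all higher (median 0.26, or −0.029 in the deposited values, 0 called by limma and 0 at an unadjusted p under 0.05), with *Myl2* at 1.24 and overlapping genotypes (limma, adjusted p = 0.669). Their median was 0.10 without wild-type pool 4 (6 of 9 higher), 0.11 without mutant pool 1 (7 of 9 higher), 0.40 without wild-type pool 3 and 0.50 without mutant pool 4. The summed log2 level of that list was 18.03 to 18.61 in the mutants and 17.71 to 18.30 in the wild type. Cardiomyocyte transcripts were thus read in every pool, although the study describes the heart as excluded, and their source was not tested. The 10 second heart field genes were above the filter in these pools, and 9 were lower, with 1 called, the forkhead factor *Foxf2* at −2.43 (limma, adjusted p = 0.00215). Foregut, pancreas, erythroid and second heart field genes thus had medians of the opposite sign to that of the 9 marker genes. Their part in the result for the 9 genes was not tested.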

How the data were processed

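Pools of E9.5 pSHF tissue were measured on 7 single-colour Agilent arrays. The deposited scan files give mean spot intensity and local background from Feature Extraction 10.5.1.1. The deposited series table gives the authors' normalized log2 values, whose column medians ran from 5.50 to 9.93. Groups came from sample titles; the label fields for strain and for genotype hold each other's entry. Intensities (43379 spots, 41174 probes) were corrected by normexp on 153 negative control spots with an offset of 50, normalized by variance stabilization (own implementation, trimming share 0.9, 7 iterations, 5 strata) and put on the log2 scale, after the study's methods, which do not name the kind of correction. Outlier spots, 155 to 206 per array, were left out and spots of a probe were averaged. A named probe was tested if all arrays of the mutants, or all of the wild type, read it well above background (23129), and a gene was read by its brightest probe. Genotypes were compared by limma 3.58.1 in R 4.3.3 without blocks, with Benjamini-Hochberg adjustment over all probes and calls at 0.05; limma stands in for SAM, which the study used. Fits were tested on simulated data. The number of arrays limits the precision.

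Members and lists were chosen with earlier results of these data known. Named genes are the 9 markers, all called genes of the other lists or the one with the lowest adjusted p where none was called, the 8 genes nearest in profile, and *Shh*. *Ptf1a*, *Hbb-bh1*, *Myl7*, *Dlk1* and *Krt18* were named outside this rule, after their values were seen. A gene that this rule names is not reported here. Replicate numbers mark a shared slide, by the labels' slide codes; deviations from the genotype means correlated by 0.19, 0.24 and 0.033 on slides 1, 3 and 4, and the replicate block was an alternative. Others were quantile normalization, quantile normalization with no background correction, scanner-processed signals scaled to their 75th percentile (these last 2 replace both correction and normalization), the deposited values, no dim filter, outliers kept, a random slide block, the median over probes, the study's thresholds and leaving out each pool. Probe coordinates are mm9 and upstream sequences RefSeq on GRCm38.p6. Figures used matplotlib.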

Additional observations from a re-analysis of the deposited data

How the results depend on the processing

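All 9 marker genes changed by more than 0 under each of 17 alternatives (153 of 153 values), and 10 of these values moved by over 1 SD between pools. The genes were chosen on this contrast, so the shared direction is no independent evidence. Dropping the dim filter or taking the median over probes could not move them, since each was read by 1 bright enough probe. The replicate block and leaving out mutant pool 2 gave the same changes as each other. The change of *Afp* ran from 0.044 in the deposited values to 0.65 once these were set to 1 median per array. The median change was 0.65 in the deposited values, where the median of all probes was −0.54, and 1.26 once those values were set to 1 median per array, an alternative chosen after seeing the data; leaving out 1 pool gave 1.05 to 1.14. The correlation of change with signal was −0.70 with quantile normalization, −0.75 with quantile normalization and no background correction, and −0.59 in the deposited values as given or centred, and −0.82 to −0.75 with 1 pool left out.

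The number of liver genes called, 14, was 9 with quantile normalization (8 of them higher), 2 with processed signals scaled to their 75th percentile, 2 without the dim filter and 0 in the deposited values as given (0 at an unadjusted p under 0.05) or centred (48 at an unadjusted p under 0.05). It was 0 with the replicate block, and 0 to 19 with 1 pool left out. At the study's thresholds (0.005 and over 2-fold) it was also 0. The study set these on SAM Q-values, and here they were set on limma's adjusted p over all probes tested. That 0 therefore does not show that these genes fail the study's criterion. Over all alternatives the number of liver genes called ran from 0 to 21. For the other cell types 2 genes were called, against 4 with quantile normalization, 4 with quantile normalization and no background correction, 1 with 75th percentile scaling, 0 in the deposited values as given or centred, 1 without the dim filter, 1 with the replicate block, 7 with the random slide block, 7 with the median over probes, 1 at the study's thresholds and 1 to 3 with 1 pool left out. No other alternative than the deposited values as given turned the sign of a list's median. The cause of these shifts was not tested. Between 4 and 3 pools, changes near the spread of 0.19 could not be resolved.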
